A study of Mus musculus with 6 samples.

Results

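The acyl-CoA thioesterases (Acot genes) are the enzymes that split acyl-CoA into a free fatty acid and coenzyme A, and 9 of them were followed here in the RNA-seq of mouse liver after the knockdown of the long non-coding RNA Hnf1aos1. The 9 genes, Acot1, Acot2, Acot3, Acot4, Acot8, Acot9, Acot11, Acot12 and Acot13, were taken by their symbols from the 40803 genes of the count table, and all 9 were abundant enough to be among the 16327 genes that were tested. The family was chosen by the read counts of Acot3, which is among the genes most lowered in the knockdown group. The comparison between the groups therefore chose the family, and the differences of its members between the groups are given as a description, without a test. The rAAV8-Hnf1aos1 group (3 libraries, called knockdown) comprised C57BL6 mice that received a recombinant adeno-associated virus of serotype 8 carrying a short hairpin RNA against Hnf1aos1 behind the U6 promoter. The rAAV8-Scramble group (3 libraries, called scramble) received the same kind of virus with a scrambled hairpin, so both groups carried virus and hairpin, and no group without virus was analysed here. The mice were males of about 6 weeks of age at the tail vein injection, with free access to food, and liver was taken 4 weeks later, 1 mouse per library. The U6 promoter is active in any cell type that the virus enters, and 1 hairpin sequence was used for the knockdown.

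Acyl-CoA is the activated form in which fatty acids are burned, stored or built into lipids, and thioesterases reverse that activation, which sets free coenzyme A in the compartment where they work. The type I enzymes share the α/β-hydrolase fold and lie side by side in the mouse genome as products of gene duplication, but they are sent to different compartments. Acot1 is cytosolic, Acot2 mitochondrial, and Acot3 and Acot4 are peroxisomal, with Acot4 known for hydrolysing succinyl-CoA and other dicarboxylyl-CoA esters. Type I genes are well known in liver as targets of the fatty acid receptor PPARα that rise in fasting. The remaining members have the unrelated hotdog fold: Acot8 is peroxisomal, Acot9 mitochondrial, Acot13 is associated with mitochondria, and Acot11 and Acot12 carry a lipid-binding START domain, with Acot12 known as a cytosolic acetyl-CoA hydrolase.

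The type I genes occupy 72.54 kb of chromosome 12 in the order Acot2 (chr12:83987861-83993877), Acot1 (chr12:84009502-84017670), Acot4 (chr12:84037254-84044723) and Acot3 (chr12:84052144-84060400) of the RefSeq annotation of GRCm38.p6, with Acot5 and Acot6 following. The other members are dispersed: Acot8 lies on chromosome 2, Acot11 on chromosome 4, Acot12 and Acot13 far apart on chromosome 13, and Acot9 on the X chromosome. Because the 4 type I transcripts were lowered together, their promoter windows are shown, each running from 250 bases before to 50 bases after the transcript start on the plus strand: chr12:83987611-83987910 for Acot2, chr12:84009252-84009551 for Acot1, chr12:84038129-84038428 for Acot4 and chr12:84051894-84052193 for Acot3. The Acot4 window lies inside the span annotated for the gene, at the start that RefSeq's promoter table uses. Capitals mark 4 motifs read on either strand: the TATA box with the letters TATAAA, the GC box written as GGGCGG, the CCAAT box, and a core element bound by many nuclear receptors, which was searched for as AGGTCA.
Acot2: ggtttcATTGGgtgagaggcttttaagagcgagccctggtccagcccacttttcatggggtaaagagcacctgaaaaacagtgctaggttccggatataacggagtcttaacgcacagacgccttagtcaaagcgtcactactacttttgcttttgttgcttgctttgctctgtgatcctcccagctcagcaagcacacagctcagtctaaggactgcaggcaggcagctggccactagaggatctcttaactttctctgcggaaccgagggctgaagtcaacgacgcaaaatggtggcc
Acot1: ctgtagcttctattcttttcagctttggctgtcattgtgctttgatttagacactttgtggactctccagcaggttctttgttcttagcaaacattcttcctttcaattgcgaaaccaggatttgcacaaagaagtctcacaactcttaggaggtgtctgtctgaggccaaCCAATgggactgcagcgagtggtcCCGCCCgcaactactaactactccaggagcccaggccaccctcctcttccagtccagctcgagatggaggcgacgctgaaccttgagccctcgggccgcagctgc
Acot4: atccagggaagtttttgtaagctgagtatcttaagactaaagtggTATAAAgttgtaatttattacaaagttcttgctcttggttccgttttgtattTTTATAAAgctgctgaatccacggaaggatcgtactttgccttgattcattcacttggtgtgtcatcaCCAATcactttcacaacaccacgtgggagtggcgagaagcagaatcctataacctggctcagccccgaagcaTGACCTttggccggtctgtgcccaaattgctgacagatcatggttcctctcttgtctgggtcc
Acot3: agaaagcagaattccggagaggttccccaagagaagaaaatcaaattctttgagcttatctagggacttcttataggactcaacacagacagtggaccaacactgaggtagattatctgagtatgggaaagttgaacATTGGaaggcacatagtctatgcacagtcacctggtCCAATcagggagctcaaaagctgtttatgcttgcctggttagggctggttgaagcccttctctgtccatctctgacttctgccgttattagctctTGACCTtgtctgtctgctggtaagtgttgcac

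The CCAAT letters were present in 4 of the 4 type I windows, against 37.9% of the 27025 mouse promoter windows of the same length, and lay at -79 in Acot1, -244 in Acot2, -113 and -77 in Acot3 and -85 in Acot4, counted from the transcript start. They were also in the windows of Acot8, Acot9 and Acot11, and in that of Acot5, which had 0 reads. Acot13 had no promoter window here and was not searched for any of the motifs. The AGGTCA element was found in 2 of 4, at 19 in Acot3 and -13 in Acot4, both on the minus strand, against 16.0% of all windows, and also in the windows of Acot12 and Acot5. TATAAA was found only in the Acot4 window of the 4 (14.2% of all windows), with 3 matches, of which the pair at -153 and -151 overlap each other on opposite strands. GGGCGG was found in the Acot1 window alone of the 4 (35.9% of all windows), and the windows of Acot8, Acot9 and Acot12 held it too, while TATAAA was also in that of Acot9. The relaxed DR1, which is AGGNCA repeated after 1 spacer base and resembles the element that PPARα binds with its partner RXR (0.381% of all windows on either strand), occurred in 0 of the 4 windows. These letter matches are a description of the windows and say nothing of which factors bind there.

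The type I coding sequences were alike while their promoters were not. Between pairs of Acot1 to Acot4, 69.2 to 86.9% of the coding bases were identical (6 pairs), with Acot1 and Acot2 the closest (86.9%), Acot1 and Acot3 at 81.4% and Acot3 and Acot4 at 72.8%. Against the 5 other members the type I genes were 22.5 to 49.9% identical (20 pairs). Identity was counted over the longer coding sequence of a pair. The low end belongs to Acot13, whose 423 coding bases cap its value. The promoter windows of the type I genes were 49.7 to 51.7% identical to each other. This was within the 47.0 to 54.7% found against the promoters of other members (16 pairs, without Acot13, which had no window). The likeness of the transcripts bears on the counts, because only uniquely mapped reads were counted: of the 150-base stretches of the GENCODE M21 transcripts, 12.4% for Acot1, 10.2% for Acot2, 2.7% for Acot3 and 0.0% for Acot4 also occurred in another counted gene. The Acot3 share was 11.3% when genes without a row in the count table were included, and the counts of Acot1, Acot2 and Acot3 may therefore understate these genes or exchange a few reads between them. No 150-base stretch of Acot8, Acot9, Acot11, Acot12 or Acot13 occurred in another gene.

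The 6 libraries held 14704746 to 19462398 reads in genes, and the knockdown libraries were the deeper ones. Of the tested genes, 6.32% were called different between the groups (adjusted p under 0.05, edgeR with adjustment by Benjamini and Hochberg), 3.23% lower and 3.09% higher in the knockdown group. The median log2 fold change of all tested genes was -0.000397, which the TMM scaling sets near 0 by construction, and 0.20 when library sizes were taken from the spike-ins, where 3030 genes were called higher and 364 lower. The targeted RNA, Hnf1aos1, had normalized read counts (reads scaled to the mean library size) of 512.0, 490.6 and 620.3 in scramble livers, against 278.5, 258.5 and 432.9 in knockdown livers. The groups did not overlap, and 59.8% of the scramble mean was left. Its log2 fold change of -0.74 (SE 0.195) had an adjusted p of 0.0625 in the fit across all genes, just outside the threshold, and an exact permutation test over the 3 against 3 libraries gave p = 0.1 (two-sided), the smallest it can give. Knockdown replicate 3 kept the most Hnf1aos1, and leaving out this highest value lowers the log2 fold change by construction, to -1.01 (edgeR adjusted p = 0.000261). Leaving out any of the other 5 libraries gave edgeR adjusted p of 0.113 to 0.218. The strand setting of the counting is not given in the sources used here, and reads of Hnf1aos1 and of genes overlapping it on the other strand could not be told apart if strands were not separated.

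The levels of the members in scramble liver were ordered on the deposited TPM scale, in which read counts are divided by transcript length and scaled to the same total in each library. Acot13 was the most abundant with 83.5 ± 3.81 TPM (SD, n = 3), followed by Acot12 with 68.9 ± 6.75 TPM. Acot1 followed with 27.8 ± 6.77 TPM, the highest level of a type I gene. Acot4 stood at 13.6 ± 2.56 TPM and Acot3 at 7.33 ± 0.433 TPM. These 5 genes had ranges over the libraries that were separate from those of their neighbours in the order. Acot8 (6.40 ± 0.365 TPM), Acot9 (5.29 ± 1.32 TPM) and Acot2 (5.27 TPM, range 4.31 to 6.74) could not be ordered, because the range of Acot9 overlapped both others. Acot11 was the lowest member with 2.01 ± 0.682 TPM. In the knockdown group Acot13, Acot12 and Acot1 kept the first 3 places of the order of means, while Acot3 moved from place 5 to place 9, the last, with 0.706 ± 0.267 TPM, and Acot4 moved from place 4 to place 6.

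**Figure D1:**
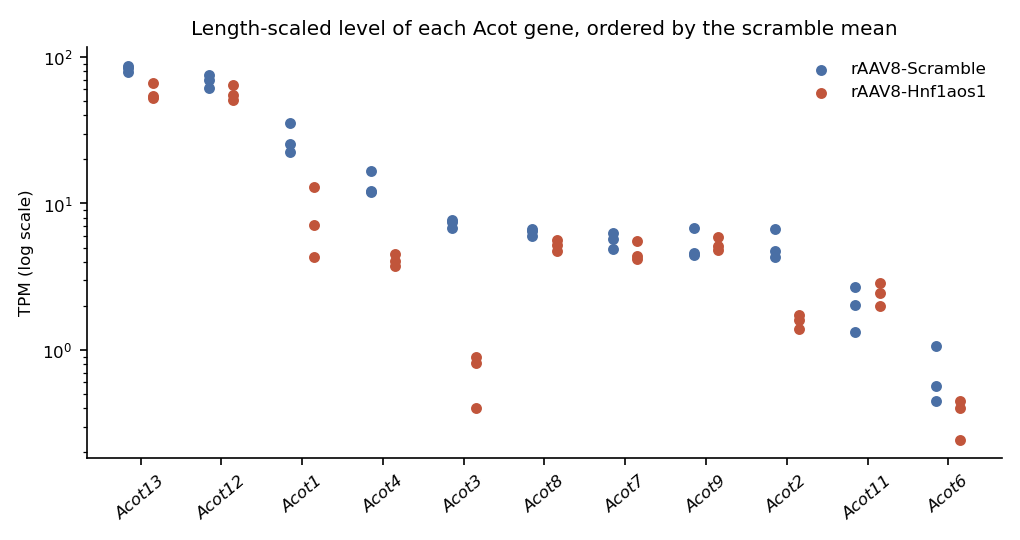
Level of each Acot gene per length, in TPM on a log axis, with 1 point per library (blue, 3 scramble libraries; red, 3 knockdown libraries), ordered by the scramble mean; Acot6 and Acot7, which are not members, are shown for comparison. Acot13 and Acot12 lead in both groups, and Acot3 drops from about the level of Acot8 to between 0.401 and 0.898 TPM.

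Acot3, the peroxisomal thioesterase of medium- and long-chain acyl-CoA, had the largest difference in the family. Normalized counts of Acot3 were 198.0, 207.5 and 174.9 in scramble livers, against 21.9, 11.4 and 25.4 in knockdown livers. All 3 knockdown libraries lay far below the lowest scramble library, at 11.3, 5.89 and 13.1% of the scramble mean. The group means of 193.4 ± 16.8 and 19.6 ± 7.27 (SD, n = 3) differed 9.89-fold, and the fitted log2 fold change was -3.29 (SE 0.240), place 37 from the lowest among the 16327 genes. The knockdown values rested on 23, 12 and 28 raw reads, against 193, 189 and 159 in the scramble libraries, so their relative spread was larger (coefficient of variation 37.2% against 8.67%).

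Acot1, the cytosolic thioesterase of long-chain acyl-CoA, had normalized counts of 272.9, 433.6 and 294.8 in scramble livers, against 52.4, 92.2 and 166.7 in knockdown livers. The groups did not overlap, but the knockdown libraries were spread over a wide range, from 15.7% of the scramble mean in replicate 1 to 49.9% in replicate 3, the library that also kept the most Hnf1aos1. The means were 333.7 ± 87.1 and 103.8 ± 58.0 (SD, n = 3), with a log2 fold change of -1.68 (SE 0.435). Its coefficient of variation in the knockdown group, 55.9%, was the highest among the type I genes. Acot2, the mitochondrial member, had normalized counts of 81.1, 116.3 and 70.4 in scramble livers, against 23.8, 31.4 and 29.0 in knockdown livers. Every knockdown library was thus below every scramble library by a wide margin, and the knockdown values were close to each other. The means were 89.3 ± 24.1 and 28.1 ± 3.84 (SD, n = 3), and the log2 fold change was -1.66 (SE 0.252).

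Acot4, the peroxisomal thioesterase of dicarboxylyl-CoA, had normalized counts of 425.8, 592.7 and 414.6 in scramble livers, against 143.0, 140.6 and 169.4 in knockdown livers. The knockdown libraries were alike, at 29.9, 29.4 and 35.5% of the scramble mean, and the groups were widely separate. The means were 477.7 ± 99.8 and 151.0 ± 15.9 (SD, n = 3), with a log2 fold change of -1.66 (SE 0.155). Acot1, Acot2 and Acot4 thus kept nearly the same share of their scramble means, 31.1, 31.4 and 31.6%, while Acot3 kept 10.1%. In scramble replicate 2 the levels of Acot1, Acot2 and Acot4 were the highest of the group, and Acot3 was highest there too, by a smaller margin.

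**Figure D2:**
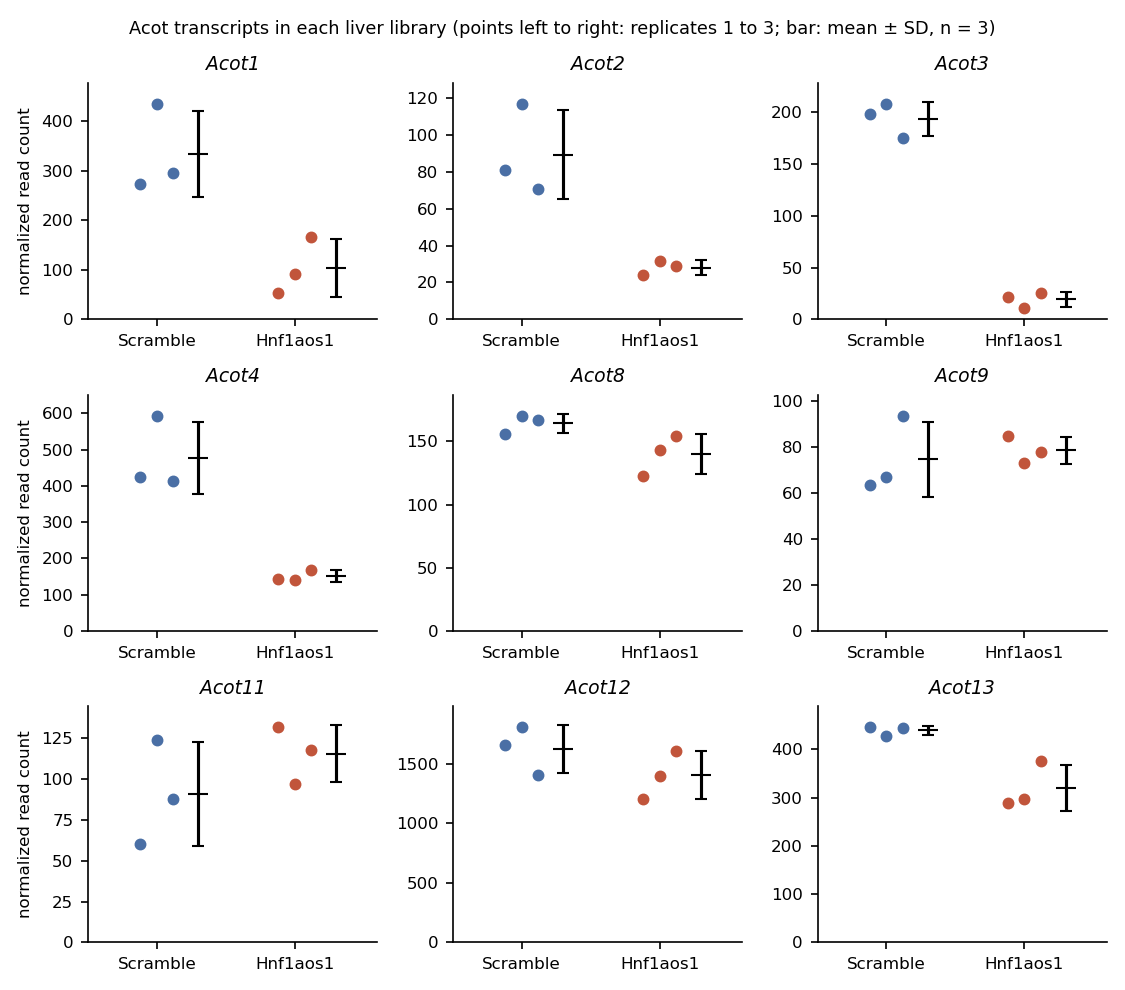
Normalized read counts of the 9 members in each library, 1 panel per gene with its own axis from 0; points are the scramble (blue) and Hnf1aos1 knockdown (red) libraries and bars the mean ± SD (n = 3). The knockdown points of Acot1 to Acot4 lie well below the scramble points, those of Acot8 and Acot13 slightly below, and those of Acot9, Acot11 and Acot12 overlap with them.

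Among the other members, Acot13, the most abundant one per length, came next. Normalized counts of Acot13 were 445.3, 428.1 and 444.3 in the scramble libraries, a coefficient of variation of 2.20%, and 289.0, 297.4 and 375.0 in the knockdown libraries. The groups did not overlap, although knockdown replicate 3 stood nearer to the scramble libraries than replicates 1 and 2 did. The mean was 439.2 ± 9.67 against 320.5 ± 47.4 (SD, n = 3), which left 73.0% and gave a log2 fold change of -0.45 (SE 0.117). Acot8, the broad-range peroxisomal thioesterase, had normalized counts of 156.0, 170.1 and 167.2 in scramble livers, against 123.0, 143.5 and 154.0 in knockdown livers. The groups were separate by a narrow margin, between 154.0 and 156.0, and the log2 fold change was -0.23 (SE 0.138).

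Acot12, the cytosolic acetyl-CoA hydrolase with the highest read counts of the family, had 1653, 1803 and 1403 normalized counts in scramble livers, against 1205, 1398 and 1609.5 in knockdown livers. The groups overlapped, with knockdown replicate 3 above scramble replicate 3, and the log2 fold change of -0.21 (SE 0.124) belonged to means of 1620 ± 202 and 1404 ± 202 (SD, n = 3). Mitochondrial Acot9 had normalized counts of 63.6, 67.0 and 93.5 in scramble livers, against 84.9, 73.2 and 77.9 in knockdown livers. All its knockdown values lay inside the scramble range, and the log2 fold change was 0.08 (SE 0.202), with a sign that depended on the setting. Acot11, first described in brown fat, had normalized counts of 60.5, 124.0 and 88.0 in scramble livers, against 131.6, 96.9 and 117.7 in knockdown livers. Its groups overlapped while the means were 90.9 ± 31.8 and 115.4 ± 17.5 (SD, n = 3), with a log2 fold change of 0.35 (SE 0.242).

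Over the whole family, 4 of 9 members had a log2 fold change below -1, all of them type I, against 3.03% of all tested genes, and 6 of 9 had knockdown libraries entirely below the scramble libraries, against 13.7% of all tested genes. The fit across all genes called 4 of the 9 members, Acot2, Acot3, Acot4 and Acot13, all lower, beside the 3.23% of genes called lower, and Acot1 was not among the called ones. Since this contrast chose the family, nothing is read from these counts. The median log2 fold change was -1.67 for the type I genes and -0.21 for the 5 others, and with library sizes taken from the spike-ins it was -1.47 and -0.0055. Knockdown replicate 3, in which the most Hnf1aos1 was left, had the highest knockdown level of Acot1, Acot3, Acot4, Acot8, Acot12 and Acot13, and a part of the remaining Hnf1aos1 in these levels was not tested. Bulk liver RNA was measured, in which fewer cells of a type and less RNA per cell cannot be told apart.

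**Figure D3:**
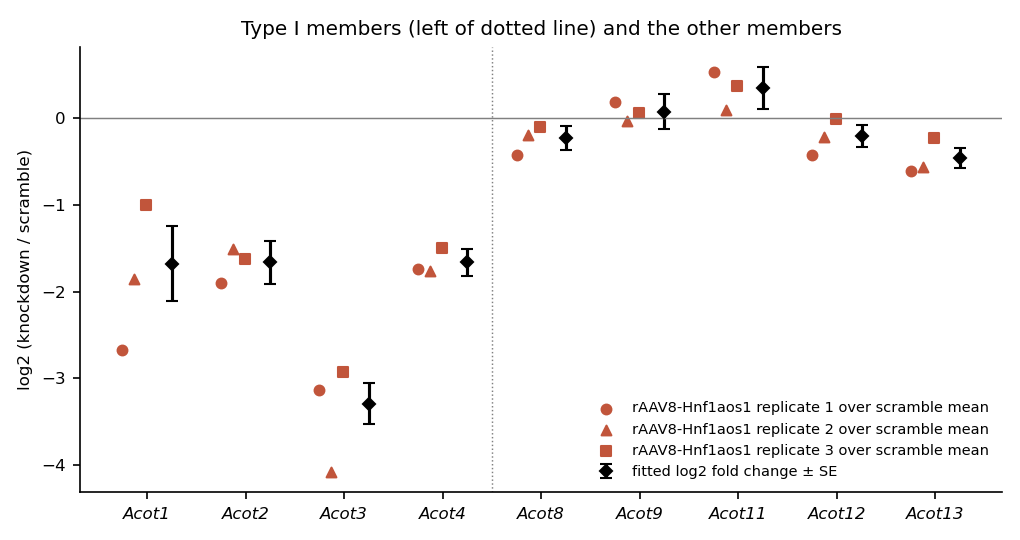
Log2 ratio of each knockdown library to the scramble mean (red circle, triangle and square for replicates 1, 2 and 3) and the fitted log2 fold change ± SE (black) for the 9 members. All points of Acot1 to Acot4 lie below -1, those of the other members between -0.60 and 0.53.

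Because the type I genes were lowered and the others less so, the makeup of the family shifted. Type I genes held 29.1, 34.2 and 30.3% of the reads of the 9 members in the scramble libraries and 11.6, 12.1 and 14.3% in the knockdown libraries. The groups were separate, with means of 31.2 ± 2.68% and 12.7 ± 1.45% (SD, n = 3). On the TPM scale the type I share was 24.4 ± 3.37% and 10.1 ± 2.03% (SD, n = 3). The summed normalized counts of Acot1 to Acot4 were 1094 ± 222 under scramble and 302 ± 78.1 under knockdown (SD, n = 3), 27.6% of the scramble level, while the summed counts of the 5 other members were 2389 ± 198 and 2059 ± 254 and overlapped. When the type I reads were summed to 1 feature before the fit, which takes away any exchange of reads among these genes, the log2 fold change was -1.85 (SE 0.210). Within the type I reads, Acot3 made up 20.3, 15.4 and 18.3% in the scramble libraries and 9.09, 4.14 and 6.50% in the knockdown libraries. Acot4 was the largest part of these reads in 6 of 6 libraries, with 43.4 to 43.9% in scramble and 43.4 to 59.3% in knockdown. Reads are not divided by length, and on the TPM scale Acot1 was above Acot4 in 6 of 6 libraries. The TPM means of Acot1 and Acot4 were 27.8 and 13.6 in scramble, and 8.16 and 4.09 in knockdown.

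The genomic surroundings of the type I cluster were examined next, to see whether its neighbours differed as well. Of the protein-coding neighbours on both sides that are reported here, 8 were tested (Heatr4 was too low) and 0 were called by edgeR's quasi-likelihood test. An unadjusted p under 0.05 was found for 0 of the 8, and DESeq2 and limma voom each called 0. The neighbour nearest to the Acot2 side that was tested, the histone demethylase gene Riox1, had a log2 fold change of 0.08 (SE 0.199), and Numb, an adaptor of Notch signalling, 0.011 (SE 0.0925), a value whose sign depended on the scaling. On the far side of the cluster, Dnal1, a dynein light chain, had a log2 fold change of 0.23 (SE 0.249), and its knockdown libraries, at 31.4 to 36.2 normalized counts, lay just above the scramble libraries, at 27.4 to 30.8. Pnma1 had the largest size of difference among the neighbours, -0.72 (SE 0.369), on a mean of 13.97 normalized counts in scramble and 8.44 in knockdown, and its groups did not overlap either, with knockdown lower. Papln (-0.22), Mideas (-0.12, positive when scaled by spike-ins), Gm31513 (-0.31) and Gm46319 (-0.37) had overlapping groups. Further type I genes lie within the cluster beyond Acot3. Acot5 had 0 reads in 6 of 6 libraries. Acot6, a peroxisomal enzyme, was low, with mean normalized counts of 17.6 ± 8.69 in scramble and 9.65 ± 2.62 in knockdown (SD, n = 3). Its groups overlapped, and the log2 fold change of -0.85 (SE 0.440) had an adjusted p of 0.269 in edgeR's test.

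**Figure D4:**
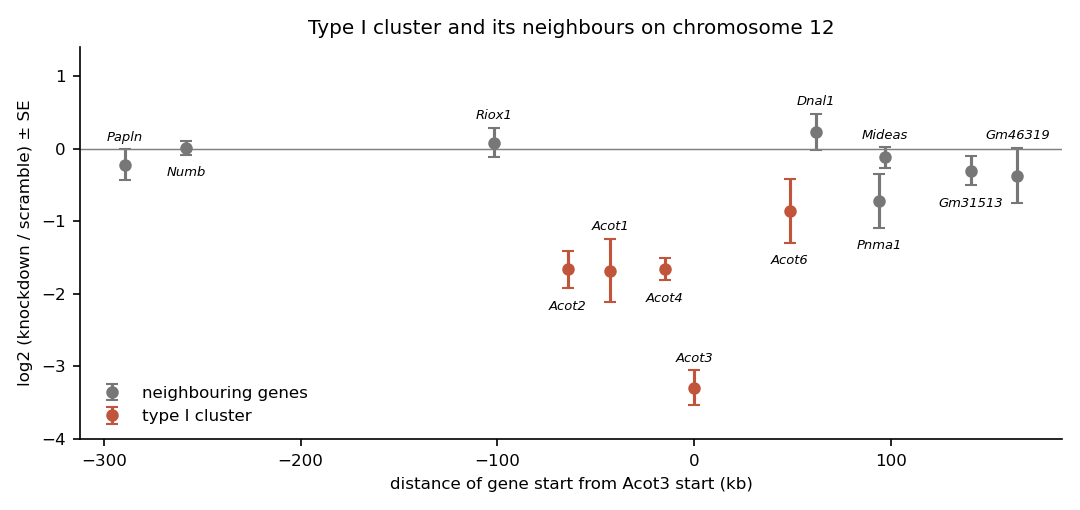
Fitted log2 fold change ± SE of the genes around the type I cluster on chromosome 12 against the distance of each gene's start from the Acot3 start, in kb; red points are type I genes, grey points the neighbours. Acot1, Acot2, Acot3 and Acot4 lie between -1.66 and -3.29, and the neighbours between -0.72 and 0.23.

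Genes that make, carry, use or hydrolyse acyl-CoA were compared, to set the members beside the pathway they belong to. Together with a list drawn up as regulators of Acot transcription they formed 7 lists with 121 tested genes. Of these genes 1 was called higher and 2 lower, where 6.32% of all tested genes were called, and the median log2 fold change over the lists was -0.09. The list of other thioesterases and type I relatives had 12 tested genes, among them the cytosolic Acot7 and the bile acid conjugating enzyme Baat. The type I gene Acot6 was counted in this list too, with its lowest log2 fold change (-0.85). Of the 12, 0 were called by edgeR, DESeq2 or limma voom. The mitochondrial thioesterase Them4 alone had an unadjusted p under 0.05 in edgeR's test (log2 fold change -0.33, adjusted p = 0.207). Acot7 had normalized counts of 151.8, 198.7 and 169.4 in scramble and 136.4, 138.7 and 182.0 in knockdown, with a log2 fold change of -0.18 (SE 0.160, edgeR adjusted p = 0.526). Acot10, a mitochondrial relative of Acot9, had 0 reads in 6 of 6 libraries.

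Acot3, Acot4 and Acot8 act in peroxisomes. The list of peroxisomal fatty acid oxidation, as drawn up here with Crat in it, held both list genes that were called lower. Of all tested genes 3.23% were called lower. Crat, carnitine acetyltransferase, which passes short acyl groups from coenzyme A to carnitine, had normalized counts of 1103, 1214 and 1061 in scramble livers, against 533.1, 649.0 and 772.6 in knockdown livers. It fell in 3 of 3 knockdown libraries without overlap, by 0.79 on the log2 scale (SE 0.127, edgeR adjusted p = 0.00803), and was called in every alternative fit. Acaa1b, the peroxisomal 3-ketoacyl-CoA thiolase B, the last step of peroxisomal β-oxidation, had normalized counts of 9592, 14647 and 10311 in scramble livers, against 4900, 5677 and 7436 in knockdown livers. It fell by 0.94 (SE 0.199, edgeR adjusted p = 0.0336), a call that was lost without scramble replicate 2 (0.0521), scramble replicate 3 (0.108), knockdown replicate 1 (0.0885) or knockdown replicate 2 (0.115), and without the filter on low counts (0.0569). Abcd2, a peroxisomal importer of very long-chain acyl-CoA, had a log2 fold change of -2.04 (SE 0.528) but an adjusted p of 0.0939, with scramble libraries at 118.0, 428.1 and 211.2 and knockdown libraries at 50.5, 65.6 and 67.0. DESeq2 called Abcd2 and the bifunctional enzyme gene Ehhadh (edgeR log2 fold change -0.45, adjusted p = 0.0889) as well. Of the 24 tested genes of this list 7 had an unadjusted p under 0.05 in edgeR's test, 6 lower and 1 higher. In the same list 18 had a log2 fold change below 0, and the median was -0.08. The share of all tested genes with an unadjusted p under 0.05 is not given here. Nothing is therefore read from such counts in this or the other lists.

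In the list of coenzyme A synthesis and breakdown, 1 of 16 genes was called higher, beside 3.09% of all tested genes. A log2 fold change above 0 was found for 6 of the 16. The called gene, Nudt7, encodes the peroxisomal hydrolase that cuts coenzyme A and acyl-CoA. It had normalized counts of 7652, 9183 and 6659 in scramble livers, against 11283, 9694 and 12743 in knockdown livers. The log2 fold change was 0.52 (SE 0.138, edgeR adjusted p = 0.0480), and the call was lost with limma voom (0.0514), under 4 other settings and when any library other than scramble replicate 2 was left out, with adjusted p of 0.0580 to 0.226. Among the 19 tested acyl-CoA synthetases, which catalyse the reverse reaction of the thioesterases, 0 were called by edgeR, 4 had an unadjusted p under 0.05, limma voom called 0 and DESeq2 called Acss3 as lower. Acss3, a mitochondrial synthetase of short-chain acyl-CoA, had a log2 fold change of -1.98 (SE 0.563, edgeR adjusted p = 0.128), with scramble libraries spread over 253.4, 1001 and 635.7 and knockdown libraries at 137.3, 153.0 and 186.6. Acsbg1 had a log2 fold change of -1.25 (SE 0.407, edgeR adjusted p = 0.0917). Acsl4, which prefers arachidonic acid, had 1886, 1778 and 1696 normalized counts in scramble livers, against 6223, 2893 and 2486 in knockdown livers, where replicate 1 stood apart, and its log2 fold change of 1.11 (SE 0.393) had an edgeR adjusted p of 0.182.

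Proteins that bind acyl-CoA or fatty acids (11 tested) and mitochondrial β-oxidation (20 tested) each held 0 genes called by edgeR, with medians of -0.0040 and -0.13, and 2 genes each with an unadjusted p under 0.05. DESeq2 called 1 binding protein, Fabp5, higher, and 0 mitochondrial genes, and limma voom called 0 in both lists. Cpt1b, the muscle form of carnitine palmitoyltransferase, had a log2 fold change of -1.16 (SE 0.373, edgeR adjusted p = 0.0872) on means of 19.0 and 8.40 normalized counts. The medians of the pathway lists ran from -0.15 to -0.0040, and that of Acot1 to Acot4 was -1.67. Because this contrast chose the Acot family and not these lists, nothing is read from that difference.

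**Figure D5:**
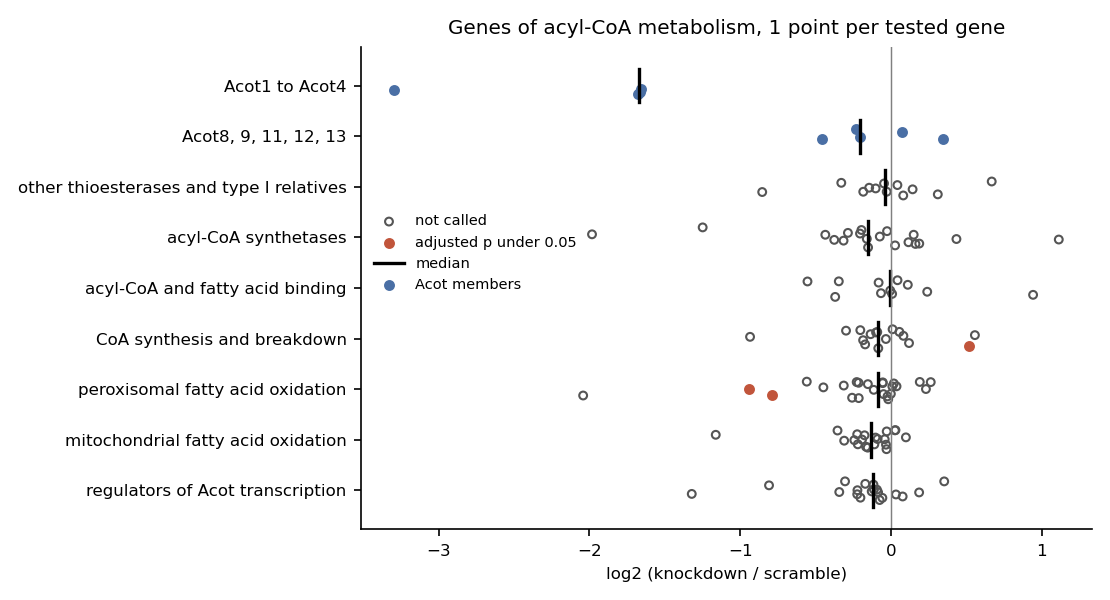
Log2 fold change of each tested gene in the lists of acyl-CoA metabolism and of Acot regulators, 1 point per gene. Black bars are list medians, blue points the Acot members, red points the list genes with an adjusted p under 0.05. The 3 red points are Crat, Acaa1b and Nudt7, and the list medians lie near 0 except that of Acot1 to Acot4 at -1.67.

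Transcripts of the list drawn up as regulators of Acot transcription were compared as well, in which Fgf21, a hormone, was also counted. Of the 19 genes of this list 0 were called by edgeR, 3 had an unadjusted p under 0.05, limma voom called 0, and DESeq2 called Rxra higher and Nr0b2 lower. Ppara, which encodes the receptor that induces type I genes, had normalized counts of 5678, 6839 and 5843 in scramble and 4749, 5914 and 5080 in knockdown. The groups overlapped, and the log2 fold change was -0.22 (SE 0.114, edgeR adjusted p = 0.269). Hnf4a, a hepatocyte master regulator, had a log2 fold change of -0.08 (SE 0.122, edgeR adjusted p = 0.724), which became positive when libraries were scaled by spike-ins. Fgf21, a fasting hormone and PPARα target, was low, with 13.3, 48.3 and 16.5 normalized counts in scramble and 7.63, 14.3 and 9.06 in knockdown, and its log2 fold change of -1.32 (SE 0.524) had an edgeR adjusted p of 0.159. These are transcript levels and do not measure the activity of the factors.

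The genes whose pattern was most like that of Acot3 were ranked by the root mean square difference of centred log2 CPM (reads scaled to a common library total) over the 6 libraries, among 16326 genes. The 5 closest were Car6, a secreted carbonic anhydrase (0.240), Atp12a, a proton and potassium pump (0.308), the hair keratin gene Krt83 (0.354), Crnn, cornulin of squamous epithelium (0.408), and Rwdd2a (0.419). Car6, Atp12a, Krt83 and Crnn were far less abundant in reads than Acot3, with scramble means of 23.4, 29.2, 30.9 and 42.7 normalized counts. Their knockdown means were 1.24, 1.53, 1.22 and 3.97 normalized counts, near the floor. Few reads therefore stood behind their likeness to Acot3 in the knockdown group. Rwdd2a had 98.5, 173.4 and 162.8 normalized counts in scramble and 30.5, 9.50 and 22.6 in knockdown, and like Acot3 it was lowest in knockdown replicate 2. With a prior count of 0.5 in place of 2 in the log2 values the 5 genes took places 6, 27, 33, 9 and 2, so the order of the low genes depended on that setting. The other type I genes followed at place 76 for Acot4, 91 for Acot1 and 103 for Acot2. This measure was taken over the same libraries that chose Acot3 and is a description.

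Markers of liver cell types were followed beside the family. Hepatocyte markers, the check of the tissue label, were abundant: 9 of 10 were in the table, with a summed level of 71444 to 80393 CPM in scramble and 74860 to 89304 in knockdown, led by Alb. Of these 9, Fgb was called higher (log2 fold change 1.11, edgeR adjusted p = 0.00682) and Tat lower (log2 fold change -0.72), beside 6.32% of all tested genes. Groups did not overlap for 5 of the 9, 3 higher and 2 lower in knockdown. Of all tested genes 13.7% had knockdown libraries entirely below the scramble libraries. The share entirely above is not given here, and nothing is read from these counts. Macrophage markers moved with the groups: their sum was 218 to 259 CPM in scramble and 275 to 357 in knockdown. A positive log2 fold change was found for 10 of 10. EdgeR called 4 of the 10 higher, beside 3.09% of all tested genes, while DESeq2 called 5 and limma voom 2. The sum of cholangiocyte markers was 37.4 to 44.4 in scramble and 53.6 to 153 in knockdown, led by Spp1, with 0 of 6 tested called by edgeR, DESeq2 or limma voom and 0 at an unadjusted p under 0.05. Skeletal muscle markers summed to 76.0 to 284 in scramble and 34.7 to 88.2 in knockdown and overlapped, with 10 of 10 negative log2 fold changes, 0 called by edgeR or limma voom, 3 at an unadjusted p under 0.05 and 2 called lower by DESeq2, Tnnt3 and Pvalb. The sums of endothelial, stellate, and lymphocyte and neutrophil markers overlapped between the groups, with 0 called in each list by the same 3 tools and 0, 1 and 1 at an unadjusted p under 0.05. Of the adipocyte markers 3 of 8 were tested, all with a log2 fold change below 0. Of these, 1, Cfd, was called lower (-1.16, edgeR adjusted p = 0.0411), beside 3.23% of all tested genes. The sum of that list overlapped but was mostly Pck1 (means of 2059 CPM in scramble and 1883 CPM in knockdown), which hepatocytes also express. In each list except that of lymphocytes and neutrophils, where 1 marker had 0 reads throughout, every marker in the table had reads. The part of these markers in the levels of the Acot genes was not tested.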

How the data were processed

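RNA-seq was analysed from 6 mouse livers, 3 rAAV8-Scramble and 3 rAAV8-Hnf1aos1, grouped by the sample labels. The authors trimmed 150-base reads with Trimmomatic, used STAR with GRCm38 for alignment, and deposited the raw counts of exonic, uniquely mapped reads that featureCounts returned. The labels list GRCm39 instead, and gene positions here come from RefSeq tables of GRCm38.p6. The labels describe ribosomal RNA depletion and the methods poly(A) selection; which was used is not settled, and the strand setting and annotation are not given in the sources used here. The authors also deposited TPM values, used for levels between genes. The authors' normalized counts and their table of fold changes, p-values and adjusted p-values were not used.

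From 40895 rows, 92 spike-in rows (1.46 ± 0.0727% of counts in scramble, 1.21 ± 0.0324% in knockdown, SD, n = 3) were left out, and 0 columns stayed unassigned. In R 4.3.3, edgeR 4.0.16 was run with TMM scaling, filterByExpr, robust quasi-likelihood fits on the group alone and p-values adjusted by Benjamini and Hochberg over 16327 genes, with calls at an adjusted p under 0.05. SE is the size of the log2 fold change over the square root of F. Gene totals of 14704746 to 19462398 and a common biological coefficient of variation of 13.9% set the precision. Alternatives were DESeq2 1.42.0, limma 3.58.1 (voom), other scalings and filters, a replicate block and leaving out each library. The fits were tested on simulated data. TPM ratios had 0.1 or 1 added. Log2 CPM used a prior count of 2. Coding identity and promoter windows were computed with Biopython 1.88, and figures were drawn with matplotlib 3.10.9. The members and all gene lists were chosen with earlier results of these data known. Genes named were the 9 members, Hnf1aos1, the called list genes (up to 30) and those with a log2 fold change beyond 1, Ppara, Hnf4a, neighbours on each side (5 at most) of the type I cluster and the 5 genes most like Acot3; Acot5, Acot6, Acot7, Acot10, Baat, Them4, Ehhadh, Fabp5, Rxra, Nr0b2, Fgb, Tat, Cfd, Tnnt3 and Pvalb were named after their values were seen, and a few genes of this rule are not reported here and were left out of the list and neighbour counts. The libraries came from separate mice, and no batch is given in the labels. No replicate pair agreed within sampling noise.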

Additional observations from a re-analysis of the deposited data

How the results depend on the processing

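All 64 values of Acot1 to Acot4 under the alternatives were below 0, and of 144 values over the 9 members 139 moved by less than the spread within groups. The 5 that moved more were Acot8 at -0.027, Acot12 at -0.0055 and Acot13 at -0.25 with spike-in scaling, and Acot2 at -1.28 and Acot3 at -2.29 with 1 added to TPM. Acot9, at 0.08 with overlapping groups, ranged from -0.026 (without scramble replicate 1) to 0.28 and was also below 0 with 0.1 (-0.0053) or 1 (-0.0045) added to TPM. Spike-in scaling moved the median of all genes to 0.20 and that of the 5 other Acot members to -0.0055. The difference in type I share, 18.6 percentage points, was 14.3 on TPM.

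Genes called higher and lower, 505 and 527, were 320 and 728 with library totals, 3030 and 364 with spike-in scaling, and 870 and 1032 without the filter on low counts. Pathway genes called higher and lower, 1 and 2, were 3 and 6 with DESeq2, 0 and 2 with voom, with DESeq2's size factors and with a mean of at least 50 counts, 0 and 3 with library totals, 10 and 2 with spike-ins, and 2 and 5 without the filter. Hnf1aos1 was called with DESeq2 (-0.74, adjusted p = 0.00346), voom (-0.77, adjusted p = 0.0491) and no filter (-0.74, adjusted p = 0.00564). Signs of uncalled genes outside the family changed for Numb (-0.062 with library totals, -0.021 with a mean of at least 50 counts), and Hnf4a (0.12) and Mideas (0.078) with spike-ins.

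Leaving out 1 library gave 38 to 1015 genes called higher and 65 to 866 lower, fewest without scramble replicate 3 and most without knockdown replicate 3, 0 to 3 pathway genes higher and 1 to 5 lower, 3 to 5 members called, -1.01 to -0.60 for Hnf1aos1 (called only without knockdown replicate 3), -1.97 to -1.47 for the type I median and 17.0 to 19.6 points for the share. Among the members the sign changed for Acot9 (-0.026 to 0.26, below 0 without scramble replicate 1). Outside the family it changed for Numb (-0.041 to 0.043, below 0 without scramble replicate 1 or knockdown replicate 2). Mideas (-0.25 to 0.0071) was above 0 without scramble replicate 3, and Hnf4a (-0.20 to 0.023) without knockdown replicate 1. Riox1 (-0.021 to 0.14) was below 0 without knockdown replicate 3.

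Same-numbered libraries of the groups did not deviate together over all tested genes (correlations -0.0226, 0.0231 and 0.00321). Such correlations cannot exclude a pairing that affects only some genes, and the labels name no pairing. With the replicate block, 429 genes were called higher and 449 lower, 3 members were called, 0 and 4 pathway genes were called higher and lower, and Hnf1aos1 was called (-0.77, adjusted p = 0.0138). The cause of these changes was not tested.

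With 3 mice per group, adjusted p-values near the threshold, such as those of Hnf1aos1 and Nudt7, depended on the setting. Acot3 rested on 12 to 28 reads per knockdown library.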
